A study of Mus musculus with 8 samples.

Results

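The genes described here are the chromosome 14 neighbours of Slc25a37, the mouse gene for mitoferrin 1. They were chosen by position, as the genes of the deposited table whose start lay within 20 Mb of the Slc25a37 start, less Slc25a37 itself and 12 genes of other gene families or pathways that were left out by name. That gave 251 of the 15864 genes in the table, and 232 of them passed the filter on low counts and were tested. The 19 that did not pass held 33 to 74 counts over all 8 libraries together. Liver RNA came from 5 KO samples, labelled Alb-cre Mfrn1-/- Mfrn2 -/-, and from 3 WT samples described as age-matched controls, all kept on standard chow. Mfrn1 and Mfrn2 are the other names of Slc25a37 and Slc25a28. Alb-cre expresses Cre recombinase under the albumin promoter, which is active in hepatocytes, so other cells of the liver may still hold both genes. Only the KO mice are described as carrying Alb-cre, and the labels give no strain, sex, age in weeks, littermate status or number of backcrosses for either group. Nothing in them says that the replicates are separate animals, so every p-value refers to the spread among these samples, which may be technical.

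Mitoferrins carry iron into mitochondria for heme and iron-sulfur cluster synthesis. A targeted allele is usually made in embryonic stem cells of 1 mouse strain and then bred into another, and chromosomes recombine only a few times per generation. DNA on both sides of the targeted gene can therefore travel with it for many generations, and genes in that DNA can carry strain variants that change their expression without any link to the deleted protein. Comparing the neighbours by distance addresses whether such linked differences could be present. The table holds no genotypes, so the origin of the flanking DNA was not measured.

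The sequences of a few members are shown first because the results below turn on these genes. They are the RefSeq sequences of build GRCm38.p6, the same assembly as mm10, and they are reference sequences, not those of the mice studied. The first is the hairpin of Mir686 (chr14:54616677-54616785, minus strand), the row with the smallest p among the members. Capitals in the hairpin mark the mature miRNA, and capitals in the mature sequence (chr14:54616746-54616767, minus strand) mark its seed, bases 2 to 8.
Mir686 hairpin: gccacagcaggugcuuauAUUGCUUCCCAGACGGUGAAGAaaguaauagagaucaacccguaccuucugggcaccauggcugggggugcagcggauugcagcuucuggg
mmu-miR-686: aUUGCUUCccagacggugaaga

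RefSeq promoter windows, running from 250 bases before to 50 bases after a transcript start, were on hand for 141 of the members. Those of Gm26782 (chr14:50870046-50870345, plus strand), Klhl33 (chr14:50897434-50897733, minus strand, 1 of its 2 windows) and Slc7a7 (chr14:54409423-54409722, minus strand, 1 of its 5 windows) are shown because edgeR called these genes once 1 WT library was set aside. That of Arhgef40 (chr14:51984583-51984882, plus strand) is shown as a neighbour that separated the groups in all 8 libraries. Capitals mark matches on either strand to the TATA box TATAAA, the CCAAT box or the GC box GGGCGG.
Gm26782: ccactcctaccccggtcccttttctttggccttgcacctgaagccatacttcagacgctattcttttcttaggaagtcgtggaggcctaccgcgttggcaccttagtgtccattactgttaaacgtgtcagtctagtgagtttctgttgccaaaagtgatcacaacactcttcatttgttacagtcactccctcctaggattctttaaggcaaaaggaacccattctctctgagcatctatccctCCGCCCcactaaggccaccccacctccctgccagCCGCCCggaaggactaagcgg
Klhl33: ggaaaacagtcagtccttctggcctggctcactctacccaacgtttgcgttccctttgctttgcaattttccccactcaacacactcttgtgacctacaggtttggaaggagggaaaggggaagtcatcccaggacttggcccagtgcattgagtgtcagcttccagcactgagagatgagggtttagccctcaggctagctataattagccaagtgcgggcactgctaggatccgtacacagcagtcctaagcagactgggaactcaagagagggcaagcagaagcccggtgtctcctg
Slc7a7: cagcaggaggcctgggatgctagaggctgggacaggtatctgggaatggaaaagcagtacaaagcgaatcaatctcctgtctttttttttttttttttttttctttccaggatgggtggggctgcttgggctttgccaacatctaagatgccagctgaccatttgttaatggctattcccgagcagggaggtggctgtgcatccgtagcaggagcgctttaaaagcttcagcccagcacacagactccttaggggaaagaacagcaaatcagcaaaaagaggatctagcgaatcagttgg
Arhgef40: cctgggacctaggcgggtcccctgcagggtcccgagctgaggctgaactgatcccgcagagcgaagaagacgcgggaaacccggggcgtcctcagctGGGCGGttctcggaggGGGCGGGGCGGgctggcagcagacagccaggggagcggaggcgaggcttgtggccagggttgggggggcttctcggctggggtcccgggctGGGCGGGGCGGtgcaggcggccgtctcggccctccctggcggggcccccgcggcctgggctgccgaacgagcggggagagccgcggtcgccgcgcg

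The Arhgef40 window held 5 GC boxes, some sharing bases with the next, and the Gm26782 window held 2, both on the minus strand of the window. The Klhl33 and Slc7a7 windows shown held none of the 3 motifs, nor did the other Klhl33 window, but 3 of the 5 Slc7a7 windows held a GC box. The GC box was present in 50.3% of the 181 promoter windows of members and in 35.7% of all 32851 mouse windows. The CCAAT box was present in 33.7% of the members' windows and in 37.4% of all windows, and TATAAA in 7.73% and 13.6%. The members' windows are those of tested genes only, some with several windows, while the other set holds all mouse windows. The sets are therefore unlike, and the shares say nothing particular about this stretch.

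The libraries held 24.6 to 31.9 M counts in KO and 35.5 to 43.1 M in WT, so each WT library was deeper than each KO library, and 1 count stood for 0.0227 to 0.0404 CPM, the unit used below for counts scaled to a common library size with TMM factors. Slc25a37 itself had 10.6, 8.74, 5.76, 8.15 and 8.35 CPM in KO livers, against 17.4, 12.9 and 23.03 CPM in WT livers. The groups did not overlap, and WT replicate 2 was the WT library nearest to KO, at 38.9% of the way from the KO mean to the mean of the other WT libraries. The log2 fold change was -1.09 ± 0.21 (SE, KO n = 5, WT n = 3), with an edgeR adjusted p of 0.104, a DESeq2 adjusted p of 0.000347 and an exact two-sided permutation p of 0.0179, the smallest that 56 splits can give. In bulk tissue, fewer cells of a type and less RNA per cell cannot be told apart. Hepatocyte markers (Alb, Apoa1, Ttr, Serpina1c and Cps1) summed to 87586.2 to 98394.5 CPM in KO and 88605.3 to 93427.6 CPM in WT, and none of the markers tested for 8 liver and blood cell types reached an unadjusted p of 0.05.

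At many members far on the centromeric side, WT replicate 2 lay between the KO libraries and the other WT libraries. To measure this, each library was left out of the fit in turn, genes at p under 0.01 in that fit were taken, and the position of the left-out library was read between the mean of the remaining KO libraries (0%) and the mean of the remaining WT libraries (100%). At the 15 genes so picked 10 to 20 Mb on the centromeric side of Slc25a37, WT replicate 2 lay at a median of 41.1%, with quartiles at 27.3% and 46.6%. In the same stretch the measure was 135% for WT replicate 1 (5 genes) and 101% for WT replicate 3 (7 genes). It was -9.90% to 18.6% for the 5 KO libraries. The quartiles were 108% and 138% for WT replicate 1, but 14.9% and 116% for WT replicate 3. The genes of WT replicate 3 thus spread from near KO to past the other WT libraries. Each fit picked its own genes, so these medians are not over like sets. With WT replicate 1 or 3 left out, WT replicate 2 helps to pick the genes and to set 100%. Genes where it lies near KO are then less likely to be picked. In that stretch no other library had a median near the middle between the groups, which the picking of genes may in part set. Such medians were not particular to WT replicate 2 elsewhere. Over all members the median was 44.2% for WT replicate 2 (29 genes) and 41.7% for WT replicate 3 (19 genes). At genes outside the 40-Mb stretch it was 70.2% for WT replicate 2 (299 genes), 38.7% for WT replicate 3 (542 genes) and 53.6% for KO replicate 3 (610 genes). Closer to Slc25a37 the medians rested on few genes and no library stood alone: from 0 to 10 Mb on the centromeric side they were 51.3% for KO replicate 3, 51.7% for KO replicate 4, 52.6% for WT replicate 2 and 30.4% for WT replicate 3, over 6 or 7 genes each. On the telomeric side WT replicate 2 lay at 72.2% (7 genes) and WT replicate 3 at 54.2% (6 genes). Sample origin and flanking genotype were not tested. The measure, and the counts without WT replicate 2, were chosen with the values in view.

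**Figure D1:**
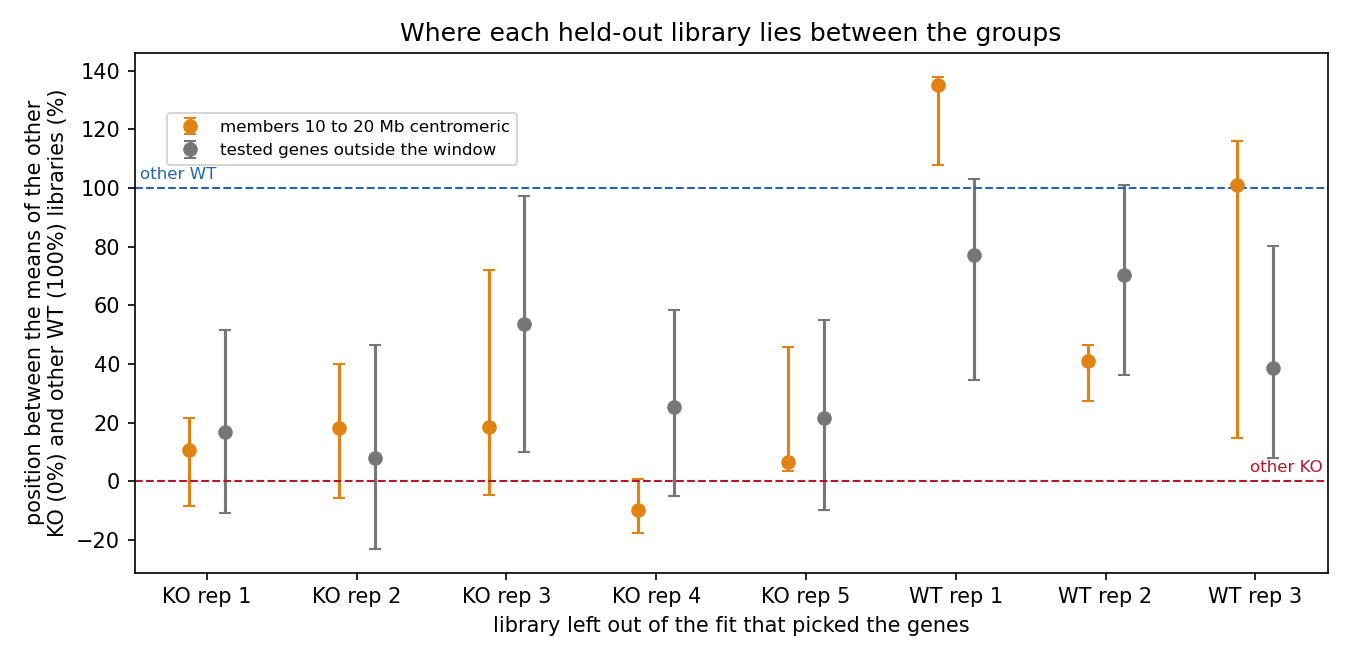
Median position (points) and quartiles (bars) of each left-out library between the other KO libraries (0%) and the other WT libraries (100%), for members 10 to 20 Mb on the centromeric side (orange) and for tested genes outside the window (grey). WT replicate 2 sits at 41.1% in orange, while WT replicates 1 and 3 sit at 135% and 101%. In grey, WT replicate 3 and KO replicate 3 are nearest the middle, at 38.7% and 53.6%. Each library is scored on genes picked without it, so the gene sets differ between libraries.

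Over all members, 1 of 232 had an edgeR adjusted p under 0.05, against 16 genes (0.109%) of the 14664 tested. It was Mir686, lower in KO, whose hairpin lies wholly inside an exon of the left-out gene Psmb5 and whose reads cannot be told from those of Psmb5. DESeq2 called 15 members (6.47%), 9 of them higher in KO, against 1.66% of all tested genes. At an unadjusted edgeR p under 0.05 stood 47 members (20.3%), against 10.4% of all tested genes. Of these, 27 were higher in KO, where the share over all genes was 5.67%, and 20 were lower, where it was 4.68%. The KO and WT values of 30 members (12.9%) did not overlap, against 6.94% of all tested genes. The median log2 fold change of the members was 0.017, beside -0.004 over all tested genes, and the median absolute value was 0.157, beside 0.133.

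These counts rested in part on single libraries. Without WT replicate 1 the count at an unadjusted p under 0.05 was 27 (11.6%), against 6.46% of all genes in the same fit. Without WT replicate 2, edgeR called 5 members (2.16%), against 0.13% of all tested genes, and without KO replicate 3 it called 2 (0.862%), against 0.218%. Leaving out any of the other 6 libraries gave 0, where 0.0546% to 0.123% of all tested genes were called. The members without overlap numbered 58 (25%) without WT replicate 3, 55 (23.7%) without KO replicate 3 and 54 (23.3%) without WT replicate 2, each time with fewer libraries to separate. The shares over all tested genes in the same comparisons were 17.2%, 12.7% and 13%. Among samples whose title numbers begin with 82 (3 WT, 2 KO), 36 members (15.5%) were at an unadjusted p under 0.05, against 9.01% of all genes.

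The rest of chromosome 14 held 245 tested genes, of which 20 (8.16%) were at an unadjusted p under 0.05 and 22 (8.98%) had groups without overlap. Around Slc25a28 on chromosome 19, the other targeted gene, 37 of 247 tested genes within 20 Mb (15%) were at an unadjusted p under 0.05 and 21 (8.50%) did not overlap. Without WT replicate 2 the first count around Slc25a28 was 27 (10.9%), and 18 (7.35%) on the rest of chromosome 14, against 8.16% of all tested genes. Chromosome by chromosome, the share at an unadjusted p under 0.05 ran from 8.24% on chromosome 18 to 14.7% on chromosome 14, with 14.2% on chromosome 6. Without WT replicate 2 it was 12.2% on chromosome 14 and 8.15% on chromosome 6. No test of these differences between groups of genes was made, because neighbouring genes are not independent.

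**Figure D2:**
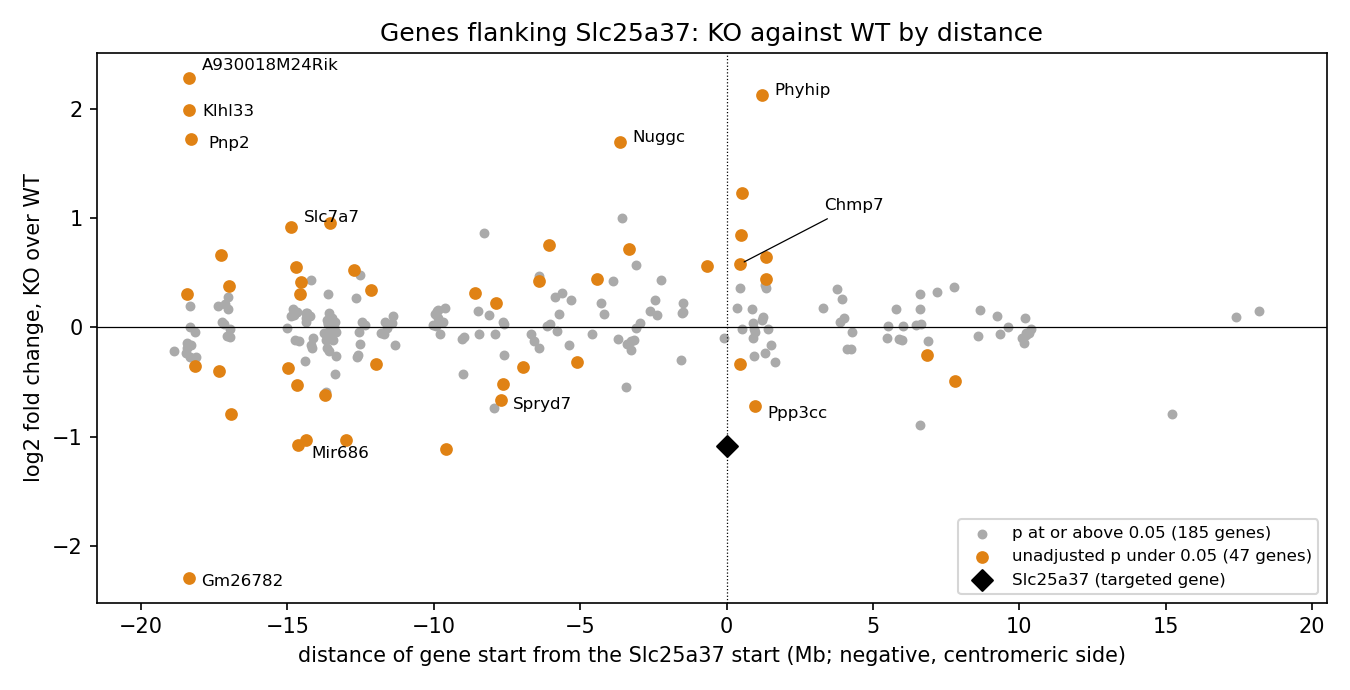
Log2 fold change (KO over WT) of the 232 tested members against the distance of their start from the Slc25a37 start in Mb, with the 47 at an unadjusted p under 0.05 in orange, the others in grey and Slc25a37 as a black diamond. Orange points stand on both sides of 0, at the centromeric end as well as close to Slc25a37, and only 2 lie more than 2 Mb away on the telomeric side.

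By distance, the share at an unadjusted p under 0.05 did not fall off steadily. On the centromeric side it was 10 of 30 tested members (33.3%) at 15 to 20 Mb, 14 of 70 (20%) at 10 to 15 Mb, 9 of 41 (22.0%) at 5 to 10 Mb, 3 of 21 (14.3%) at 2 to 5 Mb and 1 of 6 (16.7%) within 2 Mb. On the telomeric side it was 8 of 25 (32.0%) within 2 Mb, 0 of 8 at 2 to 5 Mb, 2 of 21 (9.52%) at 5 to 10 Mb and 0 of 10 beyond. The 2 highest shares thus stood at the far centromeric end and just telomeric of Slc25a37. Without WT replicate 2 the centromeric counts, in the same order, were 10 (33.3%), 11 (15.7%), 5 (12.2%), 2 (9.52%) and 1 (16.7%), against 8.16% of all tested genes. On the telomeric side they were then 5 (20%) within 2 Mb, 3 (14.3%) at 5 to 10 Mb and 0 in the other bins. The rank correlation of absolute log2 fold change with distance was -0.016 over the 232 members, 0.036 over the 168 centromeric and -0.289 over the 64 telomeric ones, across genes that share the same libraries. Within 5 Mb of Slc25a37 on either side, 12 of 60 members (20%) were at an unadjusted p under 0.05. The count was 5 (8.33%) without WT replicate 1, where the share over all tested genes was 6.46%, and 7 (11.7%) without KO replicate 1, where it was 8.26%. It was 8 (13.3%) without WT replicate 2, beside 8.16%, and 21 (35%) without KO replicate 3, beside 13.7%.

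Setting WT replicate 2 aside widened the gap to the background at a stricter threshold. At p under 0.01 stood 21 members (9.05%) with all libraries, against 3.08% of all tested genes, and 29 members (12.5%) without that library, against 2.26%. In the same comparison the rest of chromosome 14 held 6 of 245 genes (2.45%) with all libraries and 3 (1.22%) without WT replicate 2. At p under 0.05 the members' count was 37 (15.9%) without it, against 8.16% of all genes. All 5 members called without WT replicate 2 lie more than 10 Mb away on the centromeric side. They include Klhl33 and A930018M24Rik, whose rows may count 1 transcript.

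**Figure D3:**
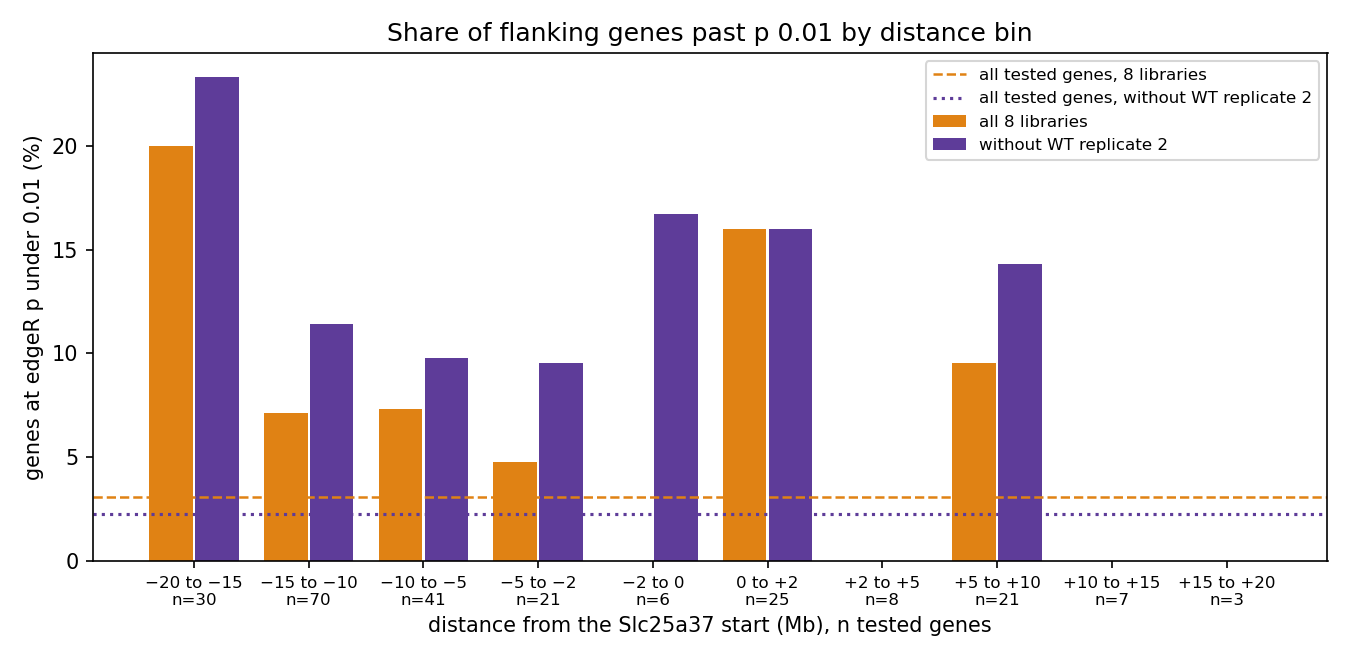
Share of tested members at edgeR p under 0.01 in each bin of distance from the Slc25a37 start (n, tested members), with all 8 libraries (orange) and without WT replicate 2 (purple), and the same share over all tested genes as dashed and dotted lines. The bin at 15 to 20 Mb on the centromeric side stands at 20% and 23.3%, and the bin within 2 Mb on the telomeric side at 16% in both.

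Of the 4 tested members nearest to Slc25a37 on each side, none had an edgeR adjusted p under 0.05. Chmp7, the last of them on the telomeric side, passed with DESeq2 and is described in the next paragraph. On the centromeric side, 1700092C10Rik, whose start is 77.1 kb away, averaged 0.375 ± 0.171 CPM in KO and 0.396 ± 0.260 CPM in WT (SD, KO n = 5, WT n = 3). Adamdec1, a disintegrin-family metalloprotease, averaged 6.78 ± 1.17 CPM in KO and 4.58 ± 1.54 CPM in WT, with overlapping values. Dock5, an exchange factor for Rac, had a log2 fold change of 0.14 ± 0.11 (SE), and Gnrh1, the gonadotropin-releasing hormone precursor, 0.22 ± 0.36. On the telomeric side, Loxl2, a lysyl oxidase of the matrix, had 0.18 ± 0.32 at an average under 1 CPM, the unnamed row ENSMUSG00000098872 had 0.36 ± 0.24, and R3hcc1 had -0.34 ± 0.13. The edgeR adjusted p-values of these 7, without Chmp7, ranged from 0.424 to 0.963.

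Within 2 Mb telomeric of Slc25a37, 8 of 25 tested members (32.0%) were at an unadjusted edgeR p under 0.05, beside 10.4% of all tested genes. These 8 lay in a stretch 0.455 to 1.34 Mb away, whose limits are set by the 8 themselves. Chmp7 (chr14:69716979-69732570), a subunit of the ESCRT-III machinery that reseals the nuclear envelope, had 83.8, 72.8, 81.4, 81.0 and 75.9 CPM in KO livers, against 45.8, 55.1 and 57.7 CPM in WT livers. Every KO library lay above every WT library. The log2 fold change was 0.58 ± 0.10 (SE), with an edgeR adjusted p of 0.0742 and a DESeq2 adjusted p of 2.39e-05. Next to it on the opposite strand, 4930480K23Rik (chr14:69732784-69767113), a transcript with no described role, had 9.99, 9.93, 9.32, 8.60 and 10.9 CPM in KO livers, against 3.50, 5.42 and 7.55 CPM in WT livers. The 2 genes do not share annotated bases, and both pointed the same way. The next gene, Tnfrsf10b, a death receptor for TRAIL, averaged 0.836 ± 0.285 CPM in KO and 0.366 ± 0.270 CPM in WT (SD), and the groups overlapped.

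Further telomeric, Ppp3cc, a catalytic subunit of calcineurin best known from testis, had 1.78, 1.89, 1.46, 1.61 and 1.67 CPM in KO livers, against 3.15, 2.65 and 2.50 CPM in WT livers. Phyhip, a partner of the peroxisomal enzyme phytanoyl-CoA hydroxylase, had 1.10, 0.664, 0.553, 1.01 and 0.725 CPM in KO livers, against 0.0454, 0.313 and 0.199 CPM in WT livers. The groups of neither gene overlapped, KO was lower for Ppp3cc and higher for Phyhip, and the lowest Phyhip value stood for 2 counts. The log2 fold changes were -0.72 ± 0.16 for Ppp3cc and 2.12 ± 0.48 for Phyhip, with edgeR adjusted p-values of 0.158 and 0.175 and DESeq2 adjusted p-values of 0.0396 and 0.00595. The position of WT replicate 2 was 87.8% for Chmp7, 84.7% for Ppp3cc and 72.2% for Phyhip. At Nudt18, a nudix hydrolase 1.34 Mb away in the same stretch, it was 19.8%. Nudt18 averaged 8.22 ± 1.13 CPM in KO and 5.27 ± 1.87 CPM in WT (SD), and the groups overlapped through that library. On the other side of Slc25a37, at Adamdec1, WT replicate 2 lay at 24.8%, so positions varied among close neighbours as well.

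**Figure D4:**
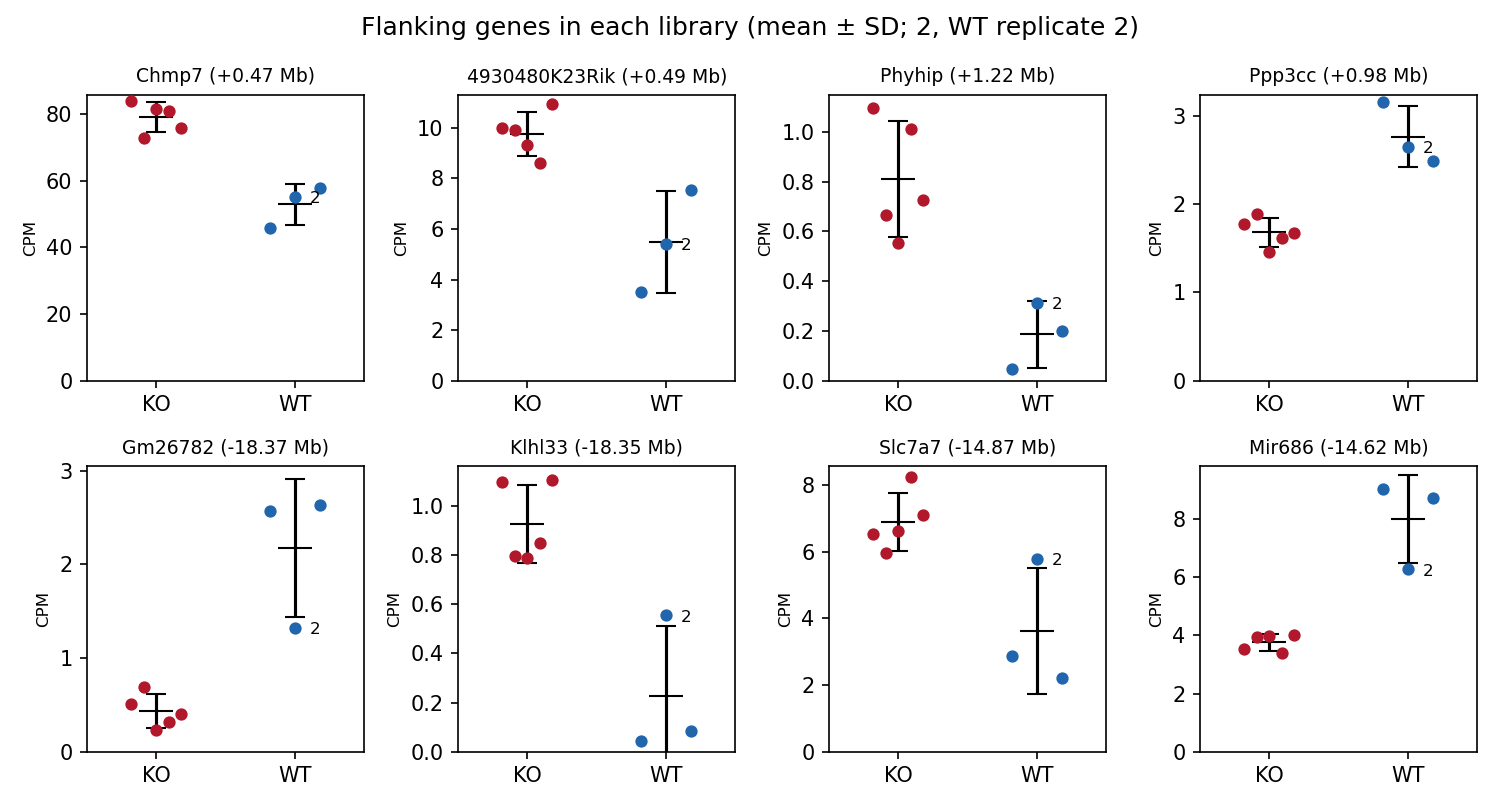
CPM of 8 members in each KO library (red, left) and WT library (blue, right), with mean ± SD in black and WT replicate 2 marked by a 2; the distance from Slc25a37 is given above each panel. In the upper row WT replicate 2 sits among the WT libraries, except at Phyhip, where it is the WT library nearest to KO. In the lower row it sits between KO and the other WT libraries. The panels are examples, and members not drawn go the other way, such as Nudt18 (19.8%) close by and Haus4 (91.5%) far away.

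At the centromeric end, the neighbours Gm26782, Klhl33, A930018M24Rik and Pnp2, 18.3 to 18.4 Mb away, had log2 fold changes of -2.29, 1.99, 2.28 and 1.72. Gm26782 (chr14:50870364-50879003), a long noncoding RNA, had 0.513, 0.698, 0.237, 0.323 and 0.410 CPM in KO livers, against 2.56, 1.33 and 2.64 CPM in WT livers. WT replicate 2 was about midway, at 41.1%, and the groups did not overlap. Its log2 fold change was -2.29 ± 0.34 (SE), with an edgeR adjusted p of 0.0542 with all libraries and 0.0251 without WT replicate 2. Gm26782 shares 144 exon bases with Tep1 on the opposite strand, and whether the authors' counting used strand is not given in the sources used here.

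Klhl33 (chr14:50891389-50893255), a kelch-repeat protein, had 1.10, 0.797, 0.790, 0.848 and 1.10 CPM in KO livers, against 0.0454, 0.554 and 0.0851 CPM in WT livers. A930018M24Rik (chr14:50895942-50897456), which overlaps the Klhl33 promoter window shown above by 23 bases and was named after its values were seen, had 1.54, 3.06, 2.05, 2.10 and 2.58 CPM in KO livers, against 0.0227, 1.30 and 0.0567 CPM in WT livers. In WT replicates 1 and 3 these values stood for 2 and 3 counts of Klhl33 and for 1 and 2 counts of A930018M24Rik, so both genes were close to undetected in those libraries and clearly counted in WT replicate 2. WT replicate 2 lay at 43.2% for Klhl33 and 43.3% for A930018M24Rik. The edgeR adjusted p-values were 0.298 and 0.395 with all libraries, and 0.00963 and 0.00343 without WT replicate 2. The 2 rows lie beside each other on the same strand. The RefSeq transcript start in the Klhl33 window shown lies upstream of all of A930018M24Rik, whose identifier was not found in GENCODE M21. The 2 rows may therefore not be separate genes, and whether they count 1 transcript was not tested.

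Pnp2, a purine nucleoside phosphorylase that lies beside its near copy Pnp, had 1.198, 2.62, 2.76, 3.43 and 2.84 CPM in KO livers, against 0.454, 1.59 and 0.255 CPM in WT livers. KO replicate 1 overlapped WT replicate 2, and reads may be shared between the copies, so the value is uncertain. About 1 Mb nearer to Slc25a37, Ndrg2, a stress-responsive gene with a high level in liver, had 1023, 939.9, 1099, 1122 and 1057 CPM in KO livers, against 1345, 1358 and 1433 CPM in WT livers. All KO libraries were lower, and here WT replicate 2 lay with the other WT libraries, at 91.0%. Its log2 fold change was -0.40 ± 0.09, with an edgeR adjusted p of 0.182 and a DESeq2 adjusted p of 0.00137. Arhgef40, a guanine nucleotide exchange factor, averaged 25.5 ± 2.35 CPM in KO and 16.1 ± 2.08 CPM in WT (SD), and Sall2, a zinc finger factor, averaged 1.14 ± 0.178 CPM in KO and 1.98 ± 0.449 CPM in WT.

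A second group lay 13.5 to 14.9 Mb away. Slc7a7 (chr14:54369444-54409472), the y+LAT1 light subunit of a cationic amino acid exchanger, had 6.54, 5.95, 6.63, 8.23 and 7.09 CPM in KO livers, against 2.88, 5.78 and 2.21 CPM in WT livers. The highest WT value, that of replicate 2, came close to the lowest KO value, while the other WT libraries were far below. The log2 fold change was 0.92 ± 0.28 with all libraries and 1.43 without WT replicate 2, with edgeR adjusted p-values of 0.301 and 0.0227. Tgm1, a transglutaminase known from skin, averaged 31.4 ± 7.99 CPM in KO and 16.3 ± 6.70 CPM in WT (SD), and WT replicate 2 lay at 39.9%. Pck2, the mitochondrial form of phosphoenolpyruvate carboxykinase, averaged 3.25 ± 0.273 CPM in KO and 5.02 ± 0.948 CPM in WT, and WT replicate 2 lay at 29.2%. Haus4, a subunit of the augmin complex of the spindle, averaged 16.7 ± 2.11 CPM in KO and 11.4 ± 0.297 CPM in WT, and WT replicate 2 lay at 91.5%. Neighbours in the same stretch thus differed in where WT replicate 2 stood.

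Mir686 was the only member past the adjusted threshold, and its hairpin lies inside a protein-coding exon. It had 3.53, 3.95, 3.99, 3.39 and 4.00 CPM in KO livers, against 9.01, 6.27 and 8.71 CPM in WT livers. All KO libraries were lower, and WT replicate 2 lay at 49.0%. The log2 fold change was -1.08 ± 0.14 (SE), with an edgeR adjusted p of 0.027, which ranged from 0.00738 to 0.106 when 1 library was left out and missed the threshold without each of 6 libraries. In detail, all 109 bases of the hairpin shown above lie within an exon of the proteasome subunit Psmb5 on the same strand in GENCODE M21. The Mir686 count was 31.3% to 38.4% of the Psmb5 count in KO libraries and 35.7% to 37.2% in WT libraries, so the 2 rows moved together. Reads of the hairpin cannot be told from reads of Psmb5 mRNA in these counts. The Mir686 row is therefore no separate measure of the miRNA, whose level was not measured. Psmb5, which is not a member, averaged 10.8 ± 1.13 CPM in KO and 22.0 ± 4.46 CPM in WT (SD), with an edgeR adjusted p of 0.0353.

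Of the 13 left-out genes, Slc25a37 included, 5 (38.5%) were at an unadjusted edgeR p under 0.05, beside 10.4% of all tested genes. They were Slc25a37, the targeted gene itself, and Psmb5, Cebpe, Slc39a2 and Slc39a14. Cebpe, a myeloid transcription factor, had 0, 0.0332, 0, 0 and 0 CPM in KO livers, against 4.70, 2.68 and 5.19 CPM in WT livers, with an edgeR adjusted p of 0.000119. Slc39a2, a zinc transporter, had 7.97, 6.84, 9.36, 8.19 and 9.93 CPM in KO livers, against 1.04, 4.51 and 0.624 CPM in WT livers, with an edgeR adjusted p of 0.222 with all libraries and 0.00148 without WT replicate 2. WT replicate 2 lay at 54.0% for Cebpe and 51.8% for Slc39a2, between KO and the other WT libraries. Slc39a14, a zinc and iron transporter 1.06 Mb telomeric of Slc25a37, averaged 218.3 ± 18.6 CPM in KO and 168.4 ± 12.8 CPM in WT (SD), with an edgeR adjusted p of 0.246 and a DESeq2 adjusted p of 0.0268, and there WT replicate 2 lay at 86.1%.

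Other members lay between the centromeric groups and Slc25a37. Spryd7, a SPRY-domain protein, averaged 19.1 ± 3.43 CPM in KO and 30.5 ± 3.83 CPM in WT (SD), with no overlap. Dleu2, a long noncoding RNA that hosts the miR-15a and miR-16-1 hairpins, averaged 18.6 ± 3.18 CPM in KO and 26.6 ± 2.32 CPM in WT. Msra, which repairs oxidised methionine in proteins, had 114.3, 99.6, 115.3, 110.5 and 109.6 CPM in KO livers, against 137.2, 135.3 and 139.8 CPM in WT livers. All KO libraries were lower, and the DESeq2 adjusted p was 0.0111, beside an edgeR adjusted p of 0.191. Nuggc, a nuclear GTPase of germinal centre B cells, averaged 0.562 ± 0.169 CPM in KO and 0.171 ± 0.144 CPM in WT. B cell markers summed to 8.49 to 27.4 CPM in KO and 11.7 to 30.5 CPM in WT, which overlap. On the telomeric side beyond 2 Mb, only Gpalpp1 (log2 fold change -0.25 ± 0.06) and Ccdc122 (-0.49 ± 0.13) were at an unadjusted p under 0.05.

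Well-known liver genes of the stretch did not pass the test. On the authors' FPKM scale, which divides by gene length, Clu, the secreted chaperone clusterin, averaged 230.6 ± 23.2 in KO and 251.2 ± 23.4 in WT (SD). Ephx2, the soluble epoxide hydrolase, averaged 320.4 ± 94.0 in KO and 349.5 ± 52.2 in WT. Cpb2, the fibrinolysis inhibitor carboxypeptidase B2, averaged 218.5 ± 13.7 in KO and 237.2 ± 9.56 in WT, and the lysosomal protease Ctsb 123.3 ± 17.95 in KO and 122.3 ± 19.2 in WT. The log2 fold changes from the counts were -0.13 ± 0.12 for Clu, -0.12 ± 0.22 for Ephx2, -0.12 ± 0.09 for Cpb2 and 0.01 ± 0.15 for Ctsb. Itm2b, a membrane protein of the BRICHOS family, had -0.20 ± 0.10 and the retinoblastoma gene Rb1 0.26 ± 0.14. All 6 had edgeR adjusted p-values of 0.525 or more. The FPKM of the members had a median of 2.98 in KO and 3.02 in WT, and 78 members in KO and 79 in WT averaged under 1.

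Sorted by role, the members at an unadjusted p under 0.05 fell unevenly over the lists, which were drawn up with earlier results of these data known. The counts therefore support neither a direction nor an excess in any list. The list named metabolic and secreted liver proteins is broad and holds genes such as Tgm1, known from skin. Of its 32 tested genes, 13 (40.6%) were at an unadjusted p under 0.05, beside 10.4% of all tested genes. Of these, 7 were higher in KO (Slc7a7, Slc7a8, Tgm1, Gjb2, Pnp2, Phyhip and Nudt18) and 6 lower (Ndrg2, Pck2, Msra, Ang, Abhd4 and Cryl1). Of 15 tested genes for DNA repair and cell cycle, 4 were past that threshold, among them Neil2, a base excision glycosylase (0.75 ± 0.27), and Ajuba, a LIM protein (-0.53 ± 0.17). Of 26 for ubiquitin, vesicle and endosome traffic, 4 were past it, all higher in KO, with Chmp7 and the endosomal protein Wdfy2 (0.42 ± 0.14) among them. Of 20 immune and blood cell genes, 3 were past it, namely Adamdec1, Tnfrsf10b and the cytotoxic protease Gzmb (-1.03 ± 0.46). Of 29 for transcription and chromatin, 2 were past it (Sall2 and Hmbox1), of 28 for RNA processing, translation and transport 2 (Kpna3, 0.22 ± 0.08, and Rnaseh2b, -0.36 ± 0.12), and of 9 best known from muscle or nerve 1 (Atp8a2, -1.11 ± 0.41). Without WT replicate 2, where 8.16% of all tested genes were past it, the counts were 10 (31.2%) for metabolic or secreted proteins, 1 (6.67%) for DNA repair and cell cycle, 3 (11.5%) for ubiquitin, vesicle and endosome traffic and 2 (10%) for immune and blood cell genes. They were then 1 (3.45%) for transcription and chromatin, 2 (7.14%) for RNA processing, translation and transport, and 0 for muscle or nerve. The median log2 fold changes of the 7 lists ran from -0.065 to 0.139, beside -0.004 over all tested genes.

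Just inside the centromeric edge, Tlr11 (18.9 Mb away) had a log2 fold change of -0.22, and just outside it 1700011H14Rik (20.02 Mb) and Naa30 (20.1 Mb) had -0.24 and -0.11. Just inside the telomeric edge, Diap3 and Tdrd3 had 0.09 and 0.15, and the first tested gene outside it, Pcdh9 (23.8 Mb), had -1.21.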

How the data were processed

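The table deposited by the authors gives, per the file headers, raw counts per gene, regularised log2 values, FPKM, a log2 ratio, a score for the adjusted p, and other columns such as gene length. The submitters' processing notes name Novoalign 2.8, DESeq2 and mm10; no source used here names the counting program or its strand setting. Starts, counted from 0 in the table, are printed from 1. Genes passing filterByExpr (min.count 10, min.total.count 15) were fitted to the deposited counts with edgeR 4.0.16 in R 4.3.3 (TMM factors, two-sided quasi-likelihood test, group as the only term) and adjusted by Benjamini-Hochberg over all tested genes, threshold 0.05. DESeq2 1.42.0, limma-voom (limma 3.58.1), RLE factors, no filter, left-out libraries and a 10-Mb window were alternatives. The procedure was run on simulated data in which WT replicate 2 was drawn midway between the groups at the changed genes. WT replicate 2 was not drawn there as an ordinary WT library. The simulation therefore cannot show what position the picking of genes alone would give. The authors' FPKM served for levels between genes. Exons came from GENCODE M21, which held 247 of the 251 members.

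Members and lists were chosen with earlier results of these data known. Named by rule were the members past the adjusted threshold, 10 per direction by p, the 4 nearest tested members on each side, up to 2 per direction from each list, and 6 known genes. A930018M24Rik, the genes at the edges, the left-out genes, Slc7a8, Gjb2, Nudt18, Ang, Abhd4 and Cryl1 were picked on sight of their values or position.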

Additional observations from a re-analysis of the deposited data

Results flagged for a closer look

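In 3 of the 44 named genes, 1 of the 5 KO libraries lay apart from the other KO libraries by more than a gap of 0.71 of the range; chance flags about 1 in 20 groups. Ephx2 had 1025.2 CPM in KO replicate 3, above the other KO libraries, with a gap of 0.91 of the range. Ajuba had 4.58 CPM in KO replicate 3, below the others, with a gap of 0.83. Pnp2 had 1.198 CPM in KO replicate 1, below the others, with a gap of 0.74.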

How the results depend on the processing

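Direction was kept by all 44 named genes with DESeq2, RLE size factors and no filter. With 1 library left out, Ctsb ranged from -0.07801 to 0.1122 on the log2 scale, 1700092C10Rik from -0.4286 to 0.5378 and Loxl2 from -0.01298 to 0.4395. Ephx2 was at 0.01299 with KO replicates 1 and 2 left out together, Clu at 0.01525 with title numbers beginning with 82 only, and Ctsb at -0.09995 with the replicate block. The called members numbered 15 (6.47%) with DESeq2, beside 1.66% of all tested genes, and 1 with limma-voom. With 1 library left out they numbered 0 to 5 (0% to 2.16%), beside 0.0546% to 0.218%. They numbered 0 without KO replicates 1 and 2, beside 0.075%, and 0 with title numbers beginning with 82, beside 0.164%. With the replicate block they numbered 0, beside 12 of 14664 genes, and within 10 Mb 0, beside 0.109%. Where so few genes were called, a count of 0 says little about the members. Members at an unadjusted p under 0.05 numbered 27 to 61 (11.6% to 26.3%) with 1 library left out, beside 6.46% to 13.7% of all tested genes. They numbered 30 (12.9%) without KO replicates 1 and 2, beside 7.15%, and 23 (18.9%) within 10 Mb, beside 10.4%. Within 5 Mb they numbered 5 to 21 (8.33% to 35%) with 1 library left out and 6 (10%) without KO replicates 1 and 2. With title numbers beginning with 82 they numbered 7 (11.7%) within 5 Mb, where 9.01% of all tested genes were past it. Members without overlap numbered 33 to 58 (14.2% to 25%) with 1 library left out, beside 8.48% to 17.2% of all tested genes. They numbered 86 (37.1%) with title numbers beginning with 82, where fewer libraries are compared, beside 26.9%. Slc25a37 passed with DESeq2 (-1.087, adjusted p 0.000347) and ranged from -1.274 to -0.8506 with 1 library left out, with edgeR adjusted p-values of 0.0989 to 0.26. The cause of these changes was not tested.

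Replicate numbers did not pair the samples: deviations of same-numbered libraries correlated at 0.062, 0.099 and -0.055. With the replicate block, 37 members were at an unadjusted p under 0.05, against 42 without it in the same 6 libraries. Over all 14664 tested genes the counts were 1346 with the block and 1485 without it. Genes under about 1 CPM rest on few counts.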
